A study of Arabidopsis thaliana with 12 samples.

Results

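The genes described here make and regulate indole glucosinolates in Arabidopsis thaliana seedlings. They were chosen by name as 10 loci of the pathway (CYP79B2, CYP79B3, CYP83B1, SUR1, UGT74B1, SOT16, MYB34, MYB51, CYP81F2 and CYP81F4). Earlier results of these data were known at that choice, so the shares over all tested genes given below are no test of the set. All 10 were found among the 33655 features of the count table and passed the filter on low counts that left 17841 tested genes. The study asks how SPA proteins, partners of the ubiquitin ligase COP1 in light signalling, bear on gene expression at high ambient temperature. It holds 12 libraries of 6-day-old seedlings, 3 for each of 4 groups: spaQ at 28 °C, spaQ at 22 °C, Col-0 at 28 °C and Col-0 at 22 °C. Col-0 is the wild-type accession, and spaQ is the name in use for a line with mutations in SPA1, SPA2, SPA3 and SPA4, whose alleles the labels do not give. All groups shared medium without sucrose, 3 days of cold in the dark, 5 days at 22 °C and white light of 25 µmol, before the treatment. The labels give that treatment as 24 h in the text for the series and as 4 h in the protocols of the samples. They do not say whether replicates are separate cultures, so the p-values measure the spread between these libraries, which may be technical.

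Indole glucosinolates are sulfur-rich defence compounds that Brassicaceae make from tryptophan. CYP79B2 and CYP79B3 turn tryptophan into indole-3-acetaldoxime, a branch point shared with the phytoalexin camalexin and with auxin metabolism. CYP83B1 takes the aldoxime into the glucosinolate route, SUR1 cleaves the carbon-sulfur bond, UGT74B1 adds the glucose and SOT16 the sulfate. MYB34 and MYB51, and their relative MYB122, switch these genes on, MYB51 mainly in shoots and MYB34 mainly in roots. CYP81F2 and CYP81F4 then oxidise the finished indole glucosinolate, CYP81F2 at a ring carbon and CYP81F4 at the ring nitrogen. Intact glucosinolates are broken down by myrosinases such as TGG1 or by PEN2, which acts in defence against fungi.

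Total counts ran from 2609808 to 9390725 per library, and 3 counts, the detection floor, corresponded to between 0.279 and 1.25 CPM. CPM here are counts scaled to a common total of the counts of the tested genes, with TMM factors. In these 3′ Tag-Seq libraries a transcript is counted near its 3′ end, so that CPM do not grow with transcript length. Genes were called, and are said to rise, fall or pass, where the adjusted p (Benjamini-Hochberg, over all tested genes) of edgeR's quasi-likelihood test was under 0.05. As a check of the genotype, SPA1, SPA2 and SPA3 were lower and SPA4 was higher in spaQ at both temperatures, with all 8 differences past the threshold and no overlap of libraries. For SPA1 the mean at 28 °C was 21.1 ± 4.12 CPM in spaQ and 64.5 ± 3.07 CPM in Col-0, and at 22 °C it was 21.1 ± 1.34 CPM in spaQ and 66.6 ± 4.66 CPM in Col-0 (SD, n = 3). Opposite-strand genes overlap SPA3 and SPA4.

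The libraries differed in markers of root tissue. The 18 root markers, among them root hair, endodermis and root cap genes, summed to 64.1 to 140 CPM (28 °C) and 101 to 147 CPM (22 °C) in spaQ, against 71.9 to 83.8 CPM (28 °C) and 215 to 219 CPM (22 °C) in Col-0. Of the 13 tested root markers, 12 fell and 0 rose at 28 °C in Col-0, where 21.9% of all tested genes fell and 18.9% rose. Within spaQ, 4 libraries had marker sums of 64.1 to 107 CPM. The sum set apart the second replicate at 28 °C (140 CPM) and the first at 22 °C (147 CPM). Counts of the root hair genes COBL9, EXPA7, LRX1 and PRP3 were 8, 20, 14 and 47 in the first of these libraries and 18, 22, 17 and 50 in the second. They were 0 throughout in replicate 1 of spaQ at 28 °C, where 9 of the 18 markers had 0 counts. Not every marker followed the sum. In spaQ at 22 °C SCR had 59.0, 59.8 and 58.4 CPM and MYB36 had 8.41, 9.20 and 8.34 CPM. SCR alone made up 46.7, 58.2 and 45.4 CPM of the sums of 65.7, 140 and 64.1 CPM in spaQ at 28 °C. The sum therefore understates, in relative terms, how far the other markers together differed between these libraries. SHR had 1.98, 6.85 and 7.67 CPM in spaQ at 28 °C. Replicate 2 of spaQ at 28 °C also differed most from its group by a chi-square test of counts, with 20.7 and 24.8 per degree of freedom against the other 2 replicates, which differed from each other by 5.88. Without these 2 spaQ libraries, values are given below for the 10 genes and the ratios, and for calls of the other lists that are named and changed. In bulk seedling RNA, fewer cells of a type and less RNA per cell cannot be told apart.

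The entry enzymes had their lowest group means in Col-0 at 22 °C. CYP79B2 (AT4G39950) had 507, 83.9 and 875 CPM (28 °C) and 306, 594 and 477 CPM (22 °C) in spaQ, against 207, 341 and 378 CPM (28 °C) and 41.0, 34.1 and 28.9 CPM (22 °C) in Col-0. Every library of the other 3 groups lay above all libraries of Col-0 at 22 °C, and replicate 2 of spaQ at 28 °C was the lowest of them. CYP79B3 (AT2G22330), which carries out the same step, had 75.2, 25.9 and 161 CPM (28 °C) and 77.3, 181 and 81.3 CPM (22 °C) in spaQ, against 86.5, 148 and 132 CPM (28 °C) and 51.9, 49.8 and 43.6 CPM (22 °C) in Col-0. Its groups lay closer together, and replicate 2 of spaQ at 28 °C lay below even the Col-0 libraries at 22 °C.

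The core enzymes also had their lowest group means in Col-0 at 22 °C. CYP83B1 (AT4G31500), the P450 that commits the aldoxime to glucosinolates, had 255, 110 and 231 CPM (28 °C) and 236, 215 and 221 CPM (22 °C) in spaQ, against 195, 231 and 230 CPM (28 °C) and 68.5, 64.0 and 72.9 CPM (22 °C) in Col-0. SUR1 (AT2G20610), the C-S lyase, had 137, 55.8 and 176 CPM (28 °C) and 115, 125 and 120 CPM (22 °C) in spaQ, against 88.7, 113 and 110 CPM (28 °C) and 66.6, 64.0 and 67.6 CPM (22 °C) in Col-0. For both genes spaQ at 22 °C and Col-0 at 28 °C stood close together and clear of Col-0 at 22 °C. UGT74B1 (AT1G24100), the glucosyltransferase, had 282, 104 and 312 CPM (28 °C) and 131, 156 and 145 CPM (22 °C) in spaQ, against 183, 235 and 207 CPM (28 °C) and 56.4, 56.5 and 58.6 CPM (22 °C) in Col-0. SOT16 (AT1G74100), the sulfotransferase, had 322, 113 and 303 CPM (28 °C) and 155, 179 and 168 CPM (22 °C) in spaQ, against 171, 255 and 231 CPM (28 °C) and 53.4, 48.9 and 53.9 CPM (22 °C) in Col-0. CYP83B1 in replicate 2 of spaQ at 28 °C was the lowest outside Col-0 at 22 °C, and SUR1 in it lay below every library of Col-0 at 22 °C. In UGT74B1 and SOT16, replicates 1 and 3 of spaQ at 28 °C were the highest of all 12 libraries, and replicate 2 was the lowest outside Col-0 at 22 °C.

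The MYB activators behaved differently from each other. MYB51 (AT1G18570) had 105, 22.3 and 110 CPM (28 °C) and 58.5, 82.4 and 83.0 CPM (22 °C) in spaQ, against 51.8, 83.5 and 87.2 CPM (28 °C) and 7.84, 4.19 and 4.25 CPM (22 °C) in Col-0. MYB34 (AT5G60890) had 5.54, 10.03 and 6.75 CPM (28 °C) and 7.57, 5.75 and 5.42 CPM (22 °C) in spaQ, against 16.1, 17.2 and 13.4 CPM (28 °C) and 17.5, 20.7 and 15.7 CPM (22 °C) in Col-0. MYB51 thus separated Col-0 at 22 °C from the other 9 libraries, whereas MYB34 separated the 6 spaQ libraries, all lower, from the 6 Col-0 libraries.

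The enzymes that modify the indole ring split in the same way as the MYBs. CYP81F2 (AT5G57220) had 185, 52.8 and 184 CPM (28 °C) and 114, 135 and 118 CPM (22 °C) in spaQ, against 90.4, 129 and 152 CPM (28 °C) and 2.71, 5.03 and 4.48 CPM (22 °C) in Col-0. CYP81F4 (AT4G37410) had 8.71, 21.0 and 6.45 CPM (28 °C) and 6.39, 13.4 and 4.17 CPM (22 °C) in spaQ, against 72.2, 68.3 and 77.7 CPM (28 °C) and 97.1, 95.0 and 92.9 CPM (22 °C) in Col-0. CYP81F2 was lowest in Col-0 at 22 °C, and CYP81F4 was lower in every spaQ library than in any Col-0 library. A gene on the opposite strand overlaps CYP81F4, so its count may hold reads of that gene. The other 9 loci overlap no gene in RefSeq's annotation, and the transcript ends of all 10 share no stretch of 50 nt with another gene.

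**Figure D1:**
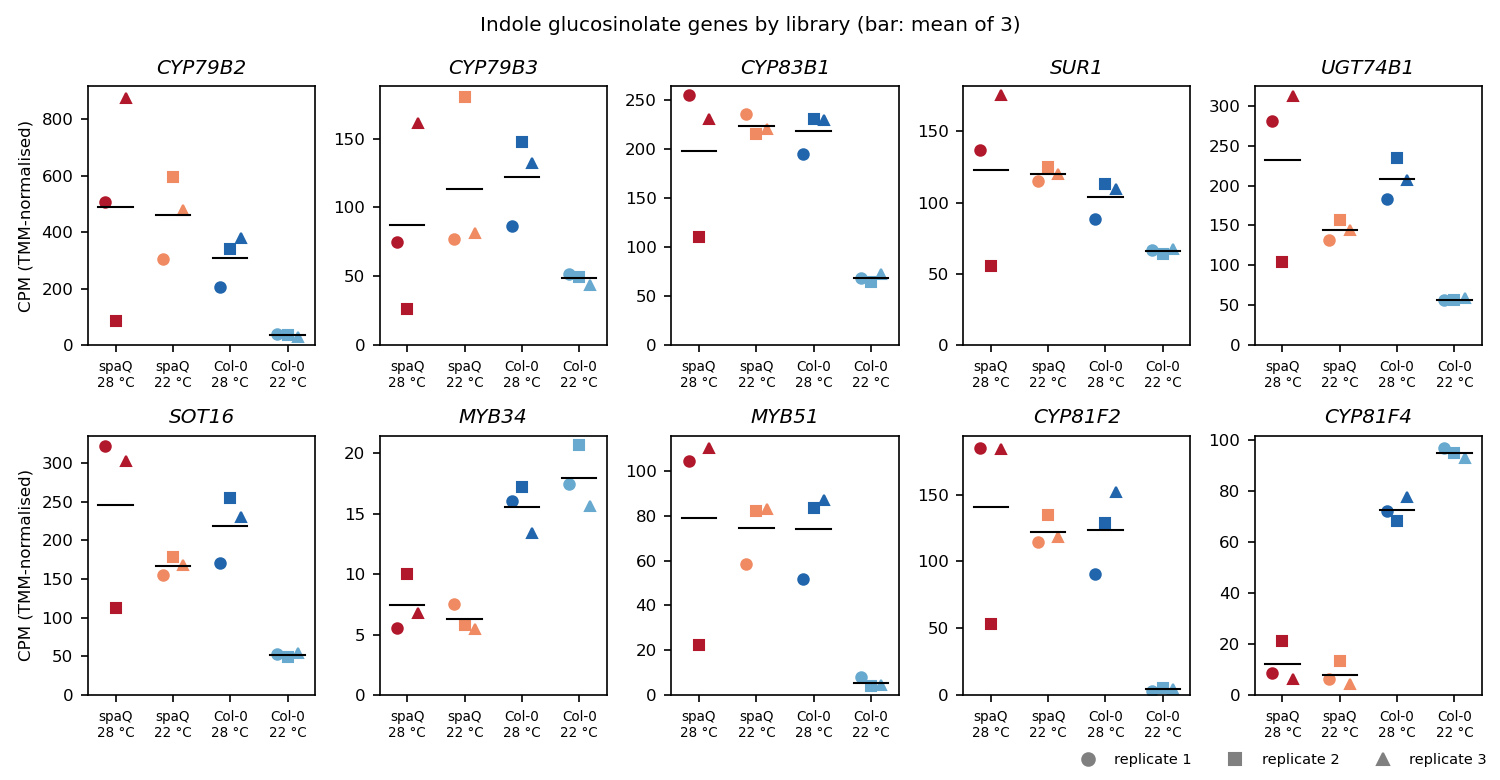
Level of each of the 10 genes in CPM (vertical axis, linear, from 0) in the 4 groups, with 1 symbol per library, its shape giving the replicate number, and a bar at the mean of 3. In 8 panels Col-0 at 22 °C is the lowest group, and MYB34 and CYP81F4 are instead lowest in both spaQ groups. Replicate 2 of spaQ at 28 °C lies below the other replicates of its group in those 8 panels.

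In Col-0, warmth raised most of the pathway. At 28 °C, 7 of the 10 genes rose and 0 fell, where 40.8% of all tested genes were called, 18.9% higher and 21.9% lower. The median log2 fold change of the 10 genes was 1.77, against −0.02 over all tested genes. The steepest rises were those of CYP81F2, 29.8-fold (log2 fold change 4.90, SE 0.474, edgeR adjusted p 2.1e-05), MYB51, 13.8-fold (3.79, SE 0.544, edgeR adjusted p 0.00019), and CYP79B2, 8.92-fold (3.16, SE 0.617, edgeR adjusted p 0.0015). SOT16, UGT74B1 and CYP83B1 rose 4.2-fold, 3.63-fold and 3.19-fold, with edgeR adjusted p between 0.00017 and 0.00039. CYP79B3 passed narrowly at 2.52-fold (1.33, SE 0.497, edgeR adjusted p 0.048), and it did not pass in 8 of 21 alternative fits, among them DESeq2 (adjusted p 0.059) and those without any single replicate of Col-0 at 22 °C (0.089 to 0.13).

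The other 3 genes did not pass in Col-0. SUR1 stood at a log2 fold change of 0.65 (SE 0.287, edgeR adjusted p 0.090) although its libraries did not overlap between the temperatures, and it passed in 7 of 21 alternative fits. MYB34 stood at −0.21 (SE 0.192, edgeR adjusted p 0.40), with overlapping libraries. CYP81F4 stood at −0.38 (SE 0.289, edgeR adjusted p 0.31), with all 3 libraries at 28 °C below those at 22 °C. It passed in 2 of 21 alternative fits. These were limma with group weights and the fit of only the libraries compared, and SUR1 passed in both. The main fit takes 1 spread per gene over all 4 groups, so these SE also carry the spread of the spaQ libraries. In total the libraries of 9 of the 10 genes did not overlap, 8 of them higher at 28 °C, where 59.5% of all tested genes had no overlap and 28.5% were higher without overlap. Root markers fell in the same libraries, as given above, and their part in the rises was not tested. Of the 12 shoot markers, 7 fell and 0 rose at 28 °C in Col-0, where 21.9% of all tested genes fell and 18.9% rose. Their sum was 16683 to 19263 CPM at 28 °C and 38132 to 41808 CPM at 22 °C. The part of shoot content in the rises was not tested either.

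At 22 °C, 7 of the 10 genes were higher and 2 were lower in spaQ than in Col-0, where 42.5% of all tested genes were called, 20.7% higher and 21.7% lower. The median log2 fold change was 1.51, against −0.05 over all tested genes, and the libraries of all 10 genes did not overlap, 8 of them higher in spaQ, where 58.1% of all tested genes had no overlap and 27.3% were higher without overlap. CYP81F2 was 29.5-fold higher in spaQ (4.88, SE 0.476, edgeR adjusted p 1.1e-05), MYB51 13.8-fold (3.79, SE 0.551, edgeR adjusted p 0.00020) and CYP79B2 13.3-fold (3.73, SE 0.630, edgeR adjusted p 0.00057). CYP83B1, SOT16, UGT74B1 and SUR1 were 3.27-fold, 3.21-fold, 2.52-fold and 1.81-fold higher in spaQ, with edgeR adjusted p between 0.00014 and 0.030. SUR1 no longer passed without replicate 2 or 3 of spaQ at 22 °C or without any single replicate of Col-0 at 22 °C (adjusted p 0.063 to 0.073). CYP79B3 stood at 1.22 (SE 0.502, edgeR adjusted p 0.068) and passed in 6 of 21 alternative fits.

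The lower genes were MYB34 and CYP81F4, an activator and a ring enzyme that did not pass with warmth in Col-0. CYP81F4 was lower in spaQ at 22 °C by 3.61 on the log2 scale (log2 fold change −3.61, SE 0.367, edgeR adjusted p 1.4e-05), a 12.2-fold difference, and MYB34 by 1.46 (log2 fold change −1.46, SE 0.227, edgeR adjusted p 0.00031). Root markers were also lower in spaQ at 22 °C, with 7 of the 13 tested markers lower and 1 higher. Over all tested genes 21.7% were lower and 20.7% higher. The part of root content in the differences of CYP81F4 and MYB34 was not tested. In Col-0 at 28 °C CYP81F4 stood at 72.7 ± 4.67 CPM and MYB34 at 15.6 ± 1.98 CPM (SD, n = 3). Without both spaQ libraries of high root marker level, the log2 fold change of CYP81F4 at 22 °C was −3.38 and that of MYB34 −1.65, and both genes passed. In that fit 11 of the 13 tested root markers were lower in spaQ at 22 °C and 0 were higher, where 22.2% of all tested genes were lower. It thus did not bring the root marker levels of the genotypes closer, and cannot tell the part of root content.

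**Figure D2:**
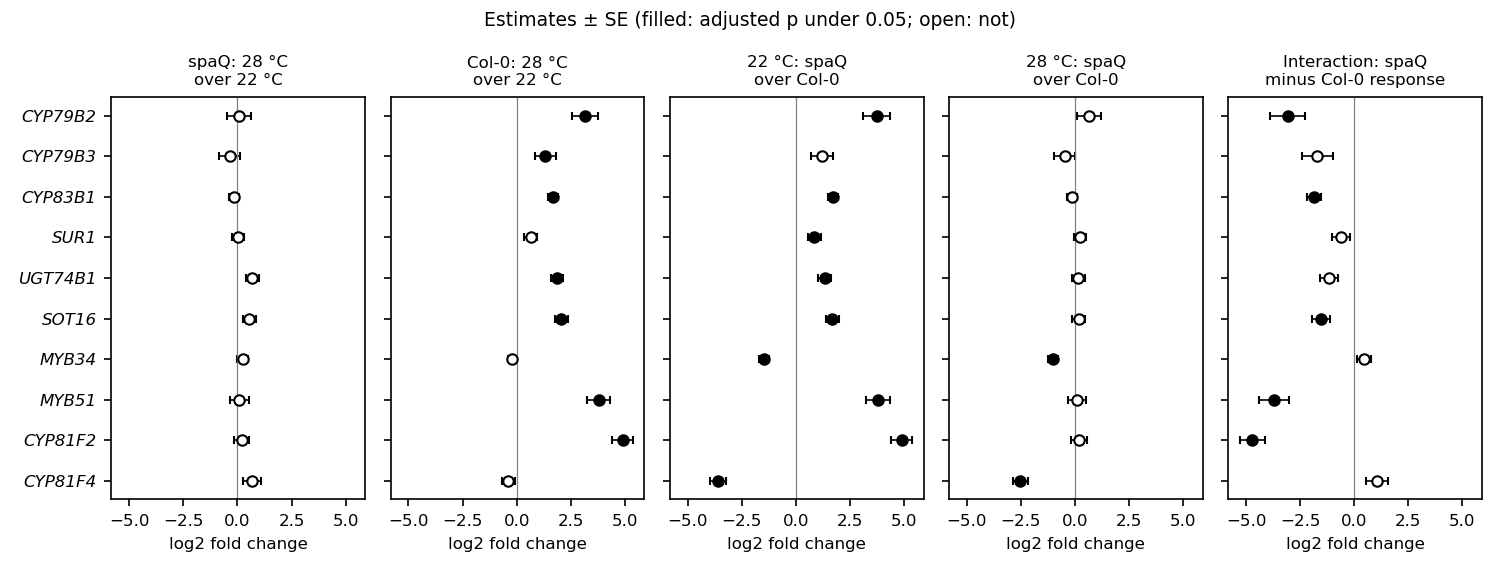
Log2 fold change (horizontal axis) with its SE for each of the 10 genes in the 5 comparisons, filled where the edgeR adjusted p was under 0.05. Col-0 warmth and spaQ against Col-0 at 22 °C share the Col-0 libraries at 22 °C as their control. In both, 8 genes lie right of 0, and MYB34 and CYP81F4 lie left of it.

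Warmth changed 0 of the 10 genes in spaQ, where 12.4% of all tested genes were called, 6.55% higher and 5.87% lower. At an unadjusted p under 0.05 there was 1, UGT74B1. The log2 fold changes ran from −0.37 for CYP79B3 to 0.69 for UGT74B1 (SE 0.288, edgeR adjusted p 0.14), with a median of 0.14, against 0.02 over all tested genes. The libraries of every gene overlapped between the temperatures, where 25.6% of all tested genes had no overlap. This count depended on replicate 2 at 28 °C. Without that library 3 genes passed, all higher at 28 °C: UGT74B1 (1.03, edgeR adjusted p 0.00013), SOT16 (0.89, edgeR adjusted p 0.0010) and CYP81F2 (0.58, edgeR adjusted p 0.036). In that fit 22.1% of all 18171 tested genes were called, 11.3% higher. Without both spaQ libraries of high root marker level 2 genes passed, UGT74B1 (0.97) and SOT16 (0.84), where 14.9% of all tested genes were called. DESeq2 and limma each called 0 of the 10, where they called 11.7% and 5.7% of all tested genes.

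At 28 °C the genotypes differed in 2 of the 10 genes, both lower in spaQ, where 30.9% of all tested genes were called, 13.5% lower and 17.4% higher. CYP81F4 was lower by 2.53 on the log2 scale (log2 fold change −2.53, SE 0.339, edgeR adjusted p 0.00011), and MYB34 by 1.01 (log2 fold change −1.01, SE 0.217, edgeR adjusted p 0.0033). These 2 genes were also the ones without overlap between the genotypes, where 40.7% of all tested genes had none, and both passed in all 21 alternative fits. The log2 fold changes of the other 8 genes ran from −0.48 for CYP79B3 to 0.66 for CYP79B2 (SE 0.553), with edgeR adjusted p between 0.41 and 0.91, and SE between 0.227 and 0.553. Leaving out replicate 2 of spaQ at 28 °C brought the count to 7, with CYP79B2 (1.13), SUR1 (0.57), CYP81F2 (0.55), UGT74B1 (0.48) and SOT16 (0.48) then higher in spaQ, where 34.9% of all tested genes were called, 19.3% higher. Leaving out both spaQ libraries of high root marker level also gave 7, where 36.9% of all tested genes were called. Without replicate 3 of spaQ at 28 °C the count was 3, with CYP79B3 then lower in spaQ (−1.30, edgeR adjusted p 0.045), where 28.9% of all tested genes were called, 12.6% lower.

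The test of the difference between the warm responses is the interaction. It was called for 5 of the 10 genes, all with a smaller response in spaQ than in Col-0, where 11.9% of all tested genes were called, 5.29% in that direction and 6.58% in the other. The response in spaQ minus that in Col-0 was −4.70 for CYP81F2 (SE 0.594, edgeR adjusted p 0.0015), −3.71 for MYB51 (SE 0.699, edgeR adjusted p 0.0080) and −1.85 for CYP83B1 (SE 0.327, edgeR adjusted p 0.0061). CYP79B2 stood at −3.07 (SE 0.815, edgeR adjusted p 0.030) and SOT16 at −1.51 (SE 0.416, edgeR adjusted p 0.034). CYP81F2, MYB51 and CYP83B1 passed in all 20 alternative fits of the interaction, whereas CYP79B2 and SOT16 passed in 12 of 20. The 3 genes alone remained without replicate 2 or 3 of spaQ at 22 °C, without replicate 2 or 3 of Col-0 at 28 °C, without any single replicate of Col-0 at 22 °C, and with the replicate number as a block. In these fits 4.89% to 7.53% of all tested genes were called. Without both spaQ libraries of high root marker level 7 genes passed, with UGT74B1 and CYP79B3 added, where 13.8% of all tested genes were called. UGT74B1 (−1.17, SE 0.410, edgeR adjusted p 0.083), CYP79B3 (−1.70, SE 0.698, edgeR adjusted p 0.14) and SUR1 (−0.62, SE 0.405, edgeR adjusted p 0.36) did not pass. MYB34 (0.45, SE 0.317, edgeR adjusted p 0.40) and CYP81F4 (1.07, SE 0.505, edgeR adjusted p 0.19) had estimates of the opposite sign, which did not pass either. The interaction, the warm response of Col-0 and the genotype difference at 22 °C all use the libraries of Col-0 at 22 °C and are not independent.

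Ratios of related genes within a library do not depend on the scaling between libraries. The log2 ratio of CYP79B2 over CYP79B3 was 2.29 ± 0.544 (28 °C) and 2.08 ± 0.425 (22 °C) in spaQ, against 1.33 ± 0.165 (28 °C) and −0.49 ± 0.136 (22 °C) in Col-0 (SD, n = 3). CYP79B3 was thus the more counted of the entry enzymes in Col-0 at 22 °C, and CYP79B2 in the other 9 libraries. For MYB34 over MYB51 it was −3.11 ± 1.71 (28 °C) and −3.54 ± 0.524 (22 °C) in spaQ, against −2.22 ± 0.510 (28 °C) and 1.75 ± 0.568 (22 °C) in Col-0. For CYP81F2 over CYP81F4 it was 3.50 ± 1.90 (28 °C) and 4.07 ± 0.727 (22 °C) in spaQ, against 0.73 ± 0.355 (28 °C) and −4.54 ± 0.475 (22 °C) in Col-0. Without both spaQ libraries of high root marker level, which leaves 2 libraries a group, the mean of MYB34 over MYB51 in spaQ was −4.10 (28 °C) and −3.84 (22 °C), that of CYP81F2 over CYP81F4 was 4.59 (28 °C) and 4.03 (22 °C), and that of CYP79B2 over CYP79B3 was 2.59 (28 °C) and 2.13 (22 °C). In all 3 ratios Col-0 at 22 °C had the sign opposite to every other library. The ratios were not tested. Between any 2 groups, an exact permutation test of 3 libraries against 3 cannot go below a two-sided p of 0.1.

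**Figure D3:**
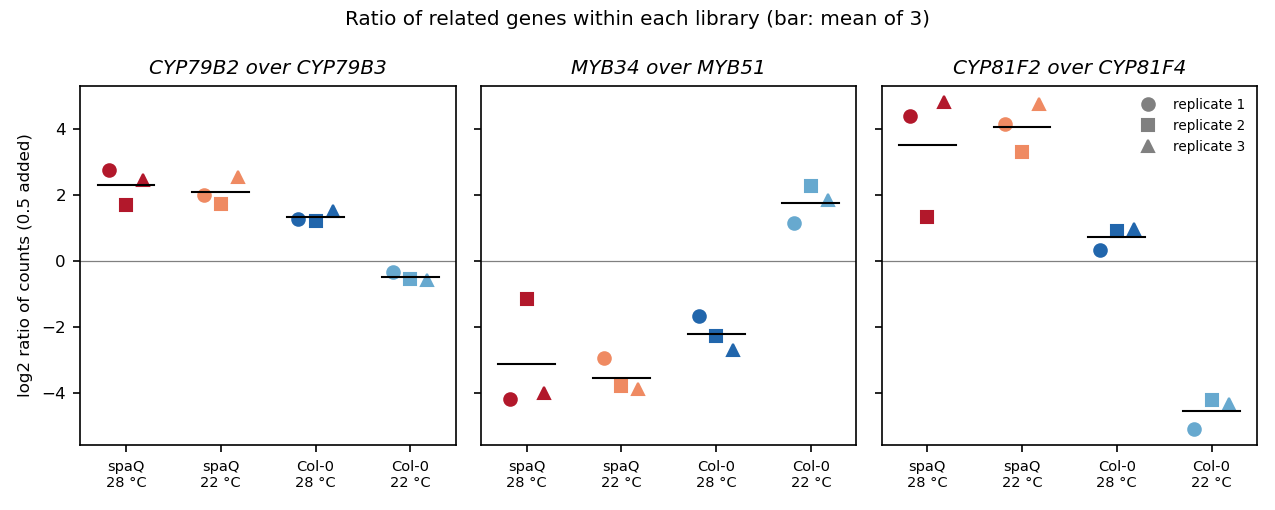
Log2 ratio of the counts of related genes (vertical axis, with 0.5 added to each count) within each of the 12 libraries, by group, with a bar at the mean of 3. The 3 libraries of Col-0 at 22 °C lie on the other side of 0 from the remaining 9 libraries in each panel, and replicate 2 of spaQ at 28 °C lies nearest to 0 of its group.

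The summed level of the 10 genes was 1880, 599 and 2365 CPM (28 °C) and 1207, 1686 and 1423 CPM (22 °C) in spaQ, against 1161, 1620 and 1617 CPM (28 °C) and 463, 442 and 443 CPM (22 °C) in Col-0. In spaQ at each temperature the library with the highest root marker sum had the lowest pathway sum. Not every gene followed the pathway sum. Within its group, MYB34 was highest in both of these libraries, CYP81F4 in that at 28 °C and CYP83B1 in that at 22 °C. The part of root content in these differences was not tested.

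**Figure D4:**
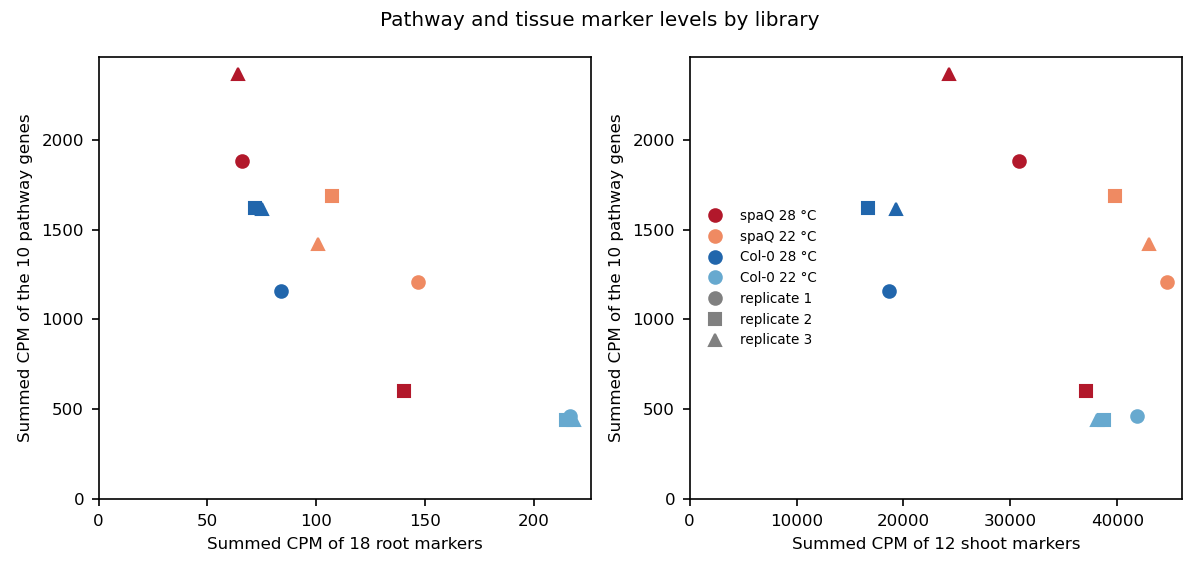
Summed CPM of the 10 pathway genes (vertical axis) against the summed CPM of 18 root markers (left) and of 12 shoot markers (right), with 1 symbol per library, its colour giving the group and its shape the replicate. The libraries of Col-0 at 22 °C lie at the highest root marker sum and the lowest pathway sum, and the second replicate of warm spaQ, at 140 and 599 CPM, lies apart from its group.

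Of 6 other core genes, 6 rose with warmth in Col-0 and 6 were higher in spaQ than in Col-0 at 22 °C, with medians of 1.80 and 1.35 on the log2 scale. Over all tested genes 18.9% rose and 21.9% fell with warmth in Col-0. At 22 °C 20.7% of them were higher and 21.7% lower in spaQ. These shares also go with the counts of the lists below. The list holds MYB122, GGP1 (a glutathione-conjugate peptidase), the glutathione transferases GSTF9 and GSTF10, and the kinases APK1 and APK2, which make the sulfate donor. An opposite-strand gene overlaps GSTF10. MYB122 had 37, 3 and 76 counts (28 °C) and 55, 73 and 45 counts (22 °C) in spaQ, against 95, 32 and 142 counts (28 °C) and 1, 0 and 3 counts (22 °C) in Col-0. Between the genotypes at 28 °C the log2 fold changes of these 6 genes ran from −0.37 to 0.26, with edgeR adjusted p of 0.35 or more. Within spaQ APK1 rose with warmth (0.84, edgeR adjusted p 0.030), with overlapping libraries, and it did not pass without replicate 1 of spaQ at 22 °C. Without replicate 2 of spaQ at 28 °C, GGP1 and APK1 rose and GSTF9 fell with warmth in spaQ, and APK2 was higher in spaQ than in Col-0 at 28 °C. Without both spaQ libraries of high root marker level APK1 was higher there too. GSTF9 did not pass with warmth in Col-0 without replicate 1 of spaQ at 22 °C.

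Of 7 further side-chain genes, 4 rose and 1 fell with warmth in Col-0, and 5 were higher and 2 lower in spaQ than in Col-0 at 22 °C. IGMT1, IGMT2, IGMT3 and IGMT4, methyltransferases that act after CYP81F2, all rose in Col-0 and were all higher in spaQ at 22 °C, but they share stretches of transcript end with each other, so that reads may be split between them. CYP81F3 fell in Col-0 by 2.09 on the log2 scale (edgeR adjusted p 0.0042) and was lower in spaQ at 22 °C by 2.38 (edgeR adjusted p 0.0052), from a mean of only 4.74 CPM in Col-0 at 22 °C. IGMT5, the methyltransferase that acts after CYP81F4, averaged 5.48 ± 2.27 CPM (28 °C) and 16.02 ± 5.60 CPM (22 °C) in spaQ, against 25.4 ± 7.36 CPM (28 °C) and 34.99 ± 4.56 CPM (22 °C) in Col-0 (SD, n = 3), and it overlaps a gene on the opposite strand. It was lower in spaQ at 22 °C by 1.11 (edgeR adjusted p 0.0059) and at 28 °C by 2.16 (edgeR adjusted p 0.00021), and it fell with warmth in spaQ by 1.54 (edgeR adjusted p 0.011), a call that did not hold without both spaQ libraries of high root marker level. At 28 °C IGMT2 was higher in spaQ than in Col-0, and IGMT3 and IGMT4 passed as well without replicate 2 of spaQ at 28 °C.

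Of 6 genes of the other branches from indole-3-acetaldoxime, 5 rose with warmth in Col-0, and 5 were higher in spaQ than in Col-0 at 22 °C, 2 comparisons that share the Col-0 libraries at 22 °C. With warmth in spaQ their lowest edgeR adjusted p was 0.55, and between the genotypes at 28 °C it was 0.058 (NIT2). Without replicate 2 of spaQ at 28 °C NIT2 passed as higher in spaQ at 28 °C, and without both spaQ libraries of high root marker level CYP71A13 and NIT2 passed as higher and CYP71B15 as lower. The camalexin enzyme CYP71B15 (PAD3) had 62.2, 9.05 and 158 CPM (28 °C) and 58.5, 198 and 108 CPM (22 °C) in spaQ, against 136, 243 and 244 CPM (28 °C) and 1.81, 0.839 and 2.24 CPM (22 °C) in Col-0. CYP71A12 and CYP71A13, which act before it, and the nitrilases NIT1 and NIT2 were the other 4 that rose in Col-0. The interaction was called for these 5 genes, all negative, where 5.29% of all tested genes were called in that direction. NIT1 and NIT2 share stretches of transcript end with each other, and CYP71A12 shares one with AT1G11610. A gene on the opposite strand overlaps CYP71A13.

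The aliphatic pathway, which makes glucosinolates from methionine with partly parallel enzymes and its own MYBs, had other counts. With warmth in Col-0, 1 of its 11 tested genes rose, SOT17 (1.62, edgeR adjusted p 0.0021), and 1 fell, UGT74C1 (−0.38), with a median of −0.22. In spaQ at 22 °C 7 of 11 were lower than in Col-0 and 0 were higher, with a median of −1.10. The lower genes included the entry enzyme CYP79F1 (−3.62, edgeR adjusted p 0.00020) and the activators MYB29 (−3.20) and MYB28 (−1.10). At 28 °C 5 of 11 were lower in spaQ than in Col-0 and 0 were higher, with a median of −0.48. CYP79F1, MYB29 and MYB28 were among them, where 13.5% of all tested genes were lower. MAM3 also passed as lower at 28 °C without replicate 2 of spaQ at 28 °C. Within spaQ CYP79F1 (1.94, edgeR adjusted p 0.048) and CYP79F2 (1.32) rose with warmth. CYP79F1 did not pass when either spaQ library of high root marker level was left out, and without replicate 2 of spaQ at 28 °C SOT17 rose and MAM3 fell. SOT17 was also higher in spaQ than in Col-0 at 22 °C in that fit, BCAT4 was no longer lower, and UGT74C1 did not pass with warmth in Col-0 when either library was left out. The interaction estimates of the 11 ran from −1.19 to 2.15, with a lowest edgeR adjusted p of 0.053 (CYP79F2). CYP79F2 passed without replicate 1 of spaQ at 22 °C, and SOT17 passed, with a negative estimate, without replicate 2 of spaQ at 28 °C. Opposite-strand genes overlap UGT74C1 and BCAT4.

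Regulators outside the MYBs, transporters and breakdown enzymes were mixed. Of 5 regulators, MYC2 (1.22), a jasmonate factor that acts with the MYBs, and OBP2 (0.52) rose with warmth in Col-0 and IQD1 fell (−0.77), while MYC4 and IQD1 were lower in spaQ at 22 °C. Without replicate 2 of spaQ at 28 °C, MYC3 rose with warmth in Col-0 and in spaQ, and IQD1 did not pass in Col-0. Of 3 glucosinolate transporters, GTR3 fell with warmth in Col-0, and in spaQ at 22 °C GTR1 was higher and GTR3 lower than in Col-0, calls that neither gene kept without replicate 1 of spaQ at 22 °C, although GTR1 passed with both spaQ libraries of high root marker level left out. Same-strand genes overlap IQD1 and GTR3, and opposite-strand genes overlap MYC2, GTR1 and GTR3. Of 10 breakdown genes, 5 rose and 2 fell with warmth in Col-0, where 18.9% of all tested genes rose and 21.9% fell. In spaQ at 22 °C 2 were higher and 7 lower (6 without replicate 1 of spaQ at 22 °C, when TGG2 did not pass). Over all tested genes 20.7% were higher and 21.7% lower there. PEN2, the atypical myrosinase for indole glucosinolates, and PEN3, a transporter that works with it, were the 2 higher ones in spaQ at 22 °C (1.47 and 1.97), and both rose in Col-0 (0.86 and 1.16). The leaf myrosinase TGG1 averaged, at 28 °C, 401 ± 126 CPM in spaQ and 682 ± 95.9 CPM in Col-0, and at 22 °C 353 ± 47.9 CPM in spaQ and 584 ± 4.83 CPM in Col-0 (SD, n = 3), and it passed as lower in spaQ at both temperatures. The root myrosinases TGG4 and TGG5, which share stretches of transcript end, had 0 counts in replicates 1 and 3 of spaQ at 28 °C and 11 and 5 counts in replicate 2.

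**Figure D5:**
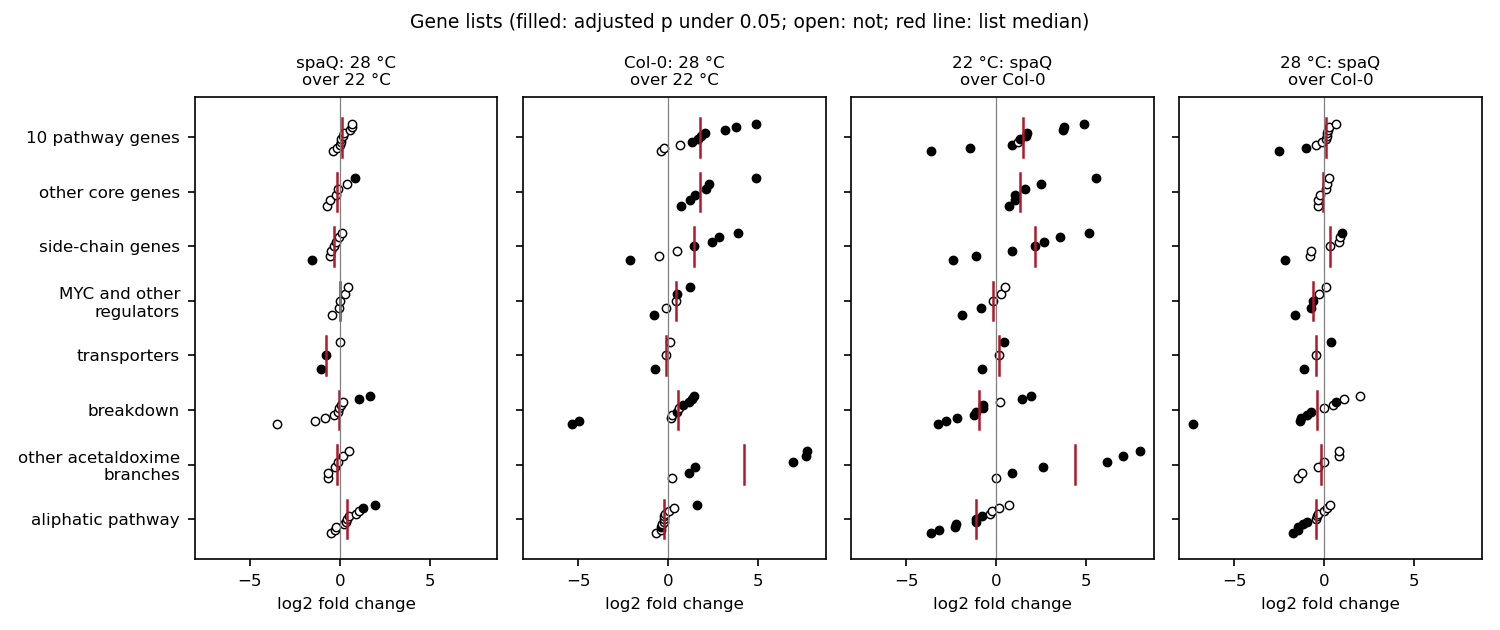
Log2 fold change (horizontal axis) of each tested gene of 8 lists in 4 comparisons, filled where the edgeR adjusted p was under 0.05, with a red line at the list median. The 10 pathway genes, the other core genes and the other acetaldoxime branches lie mostly right of 0 in Col-0 warmth and in spaQ against Col-0 at 22 °C, and the aliphatic pathway lies mostly left of 0 in spaQ against Col-0 at 22 °C.

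Likeness of profiles was measured as the root mean square difference of centred log2 CPM over the 12 libraries. Among the 10 genes the closest pair was UGT74B1 and SOT16, at 0.15, and the farthest CYP81F2 and CYP81F4, at 3.46. MYB51 lay 0.36 from CYP79B2. Outside the pathway, 12168 tested genes averaging 10 CPM or more were compared. The nearest to MYB51 were YLS5 (AT2G38860, 0.26), AT1G28190 (0.31) and WRKY33 (AT2G38470, 0.33), where the median over all compared genes was 1.71. The nearest to CYP83B1 were AT1G55450 (0.21), AT1G72940 (0.21) and AT1G06800 (0.22), with a median of 0.83, and the nearest to MYB34 were PIP3 (AT4G35100, 0.16), ACA1 (AT3G52720, 0.18) and AT2G35880 (0.18), with a median of 0.77. WRKY33 is a transcription factor of the response to fungi, and PIP3 is an aquaporin.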

How the data were processed

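Total RNA of seedlings went into 3′ Tag-Seq libraries, per the labels' protocols. The authors deposited raw counts for each gene and library, with no normalisation. The submitters' processing notes name FastQC, Bowtie2, TopHat, HTSeq and edgeR, without roles. The genome build, strand setting and duplicate removal are not given in the sources used here, so no coordinates or sequences are printed. No molecular identifiers are stated, so floors (3 counts) cover counting error only. The summary lines name no gene and were left out. Most are broken by tabs in the file and gave no share here, and ambiguous reads were 0.453% to 0.616% of gene and ambiguous reads together.

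Genes were filtered with filterByExpr and fitted over all 12 libraries, with 1 coefficient per group and TMM factors (0.917 to 1.16), by edgeR 4.0.16's quasi-likelihood test (R 4.3.3). Tests were two-sided, and calls required an adjusted p (Benjamini-Hochberg, over all 17841 tested genes) under 0.05. The SE came from the estimate and its F statistic, with 1 spread per gene over all 4 groups. The script was tested on simulated data. Names and overlaps came from RefSeq's annotation of TAIR10.1, which held 17835 of the tested genes. Alternatives were DESeq2 1.42.0 (size factors, Wald test), library totals, other filters, limma 3.58.1 with group weights, only the libraries compared, a replicate block, and each library left out. Leaving out both spaQ libraries of high root marker level was chosen after seeing the data.

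The 10 genes and all lists were chosen with earlier results of these data known. Text names the 10 genes, SPA genes, genes nearest in profile, and from other lists genes among the 3 highest and 3 lowest called. Genes named beside these to complete a list, a count of 5 or fewer, or a contrast (GSTF10, IGMT4, NIT1, NIT2, MYB28 and TGG1) were chosen after their values were seen.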

Additional observations from a re-analysis of the deposited data

Results flagged for a closer look

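The warm response differed between the genotypes in 5 of the 10 genes by the interaction of the edgeR fit, where 11.9% of all tested genes were called, 5.29% in the same direction. The count ranged from 3 to 7 over the alternative fits, and the share of all tested genes called from 4.89% to 15.5%. CYP79B2 and SOT16 passed in 12 of 20. The response in spaQ minus that in Col-0, on the log2 scale, was −4.70 for CYP81F2, −3.71 for MYB51, −3.07 for CYP79B2, −1.85 for CYP83B1 and −1.51 for SOT16. For these genes the log2 fold change with warmth in spaQ was 0.20, 0.08, 0.09, −0.18 and 0.55 in that order, and that in Col-0 was 4.90, 3.79, 3.16, 1.67 and 2.07. Root marker sums were also highest in Col-0 at 22 °C, and their part in these differences was not tested.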

How the results depend on the processing

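The calls of CYP79B2, CYP83B1, UGT74B1, SOT16, MYB51 and CYP81F2 held in all 21 alternatives for warmth in Col-0 and for spaQ against Col-0 at 22 °C, as did those of MYB34 and CYP81F4 between the genotypes at both temperatures. Of the 10 genes, leaving out 1 library at a time gave 0 to 3 calls for warmth in spaQ, 2 to 7 for spaQ against Col-0 at 28 °C and 3 to 7 for the interaction. Leaving out both spaQ libraries of high root marker level, a choice made after seeing the data, gave 2 and 7 calls in the first 2 of these. Over all tested genes, warmth in spaQ gave 2217 calls, against 1017 with limma, 418 with only the libraries compared, and 1088 to 4024 without 1 library, the highest without replicate 2 at 28 °C. The interaction gave 2117 calls, against 885 to 2838 without 1 library. Same-numbered libraries did not deviate together (mean r −0.043 over 18 pairs), so the numbers were not taken as pairing. The replicate block gave 3 calls among the 10 genes and 1343 over all genes for the interaction, and CYP79B3 did not pass with warmth in Col-0 (adjusted p 0.073).

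All values that changed sign belonged to estimates that had not passed, and the cause was not tested. Scaling to library totals moved the median of all genes for warmth in Col-0 to 0.19 and for spaQ against Col-0 at 28 °C to −0.23. Calls then split as 5382 higher and 2503 lower (3375 and 3908 with TMM) for warmth in Col-0, 1848 and 4666 (3103 and 2416) for the genotypes at 28 °C, and 485 and 1406 (1174 and 943) for the interaction. With this scaling MYB34 stood at 0.0025 for warmth in Col-0, and between the genotypes at 28 °C SUR1 stood at −0.032, UGT74B1 at −0.12, SOT16 at −0.11, MYB51 at −0.19 and CYP81F2 at −0.094. With limma, warmth in spaQ gave −0.41 for CYP79B2, −0.14 for SUR1, −0.25 for MYB51 and −0.025 for CYP81F2, and the genotypes at 28 °C gave −0.24 for MYB51 and −0.0088 for CYP81F2. With the replicate block, warmth in spaQ gave −0.040 for CYP79B2, −0.030 for SUR1 and −0.012 for MYB51, and the genotypes at 28 °C gave −0.00025 for MYB51. Without both spaQ libraries of high root marker level, warmth in spaQ gave 0.15 for CYP83B1 and −0.27 for CYP81F4, and the genotypes at 28 °C gave 0.097 for CYP83B1.

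Leaving out 1 library at a time, warmth in spaQ ranged from −0.64 to 0.58 for CYP79B2, −1.18 to 0.13 for CYP79B3, −0.40 to 0.10 for CYP83B1, −0.33 to 0.37 for SUR1, −0.084 to 0.45 for MYB34, −0.26 to 0.53 for MYB51, −0.057 to 0.58 for CYP81F2 and −0.058 to 1.16 for CYP81F4. The genotypes at 28 °C ranged from −0.069 to 1.13 for CYP79B2, −1.30 to −0.059 for CYP79B3, −0.36 to 0.12 for CYP83B1, −0.12 to 0.57 for SUR1, −0.11 to 0.48 for UGT74B1, −0.075 to 0.48 for SOT16, −0.26 to 0.52 for MYB51 and −0.069 to 0.55 for CYP81F2. In simulated data with a log2 change of 1, the test recovered 46.9% of changed genes for warmth in spaQ and 18.4% for the interaction among 17508 genes. Smaller effects were thus often not detectable. The simulation gave each gene the same spread in all groups. Real replicates differed by up to 24.8 per degree of freedom (chi-square test of counts) in spaQ at 28 °C and 2.13 in Col-0 at 22 °C. The rates in the real data may therefore differ.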
